A study of Mus musculus with 4 samples.

Results

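The genes of the cytosolic ribosomal proteins were examined for CTCF occupancy in mouse cardiac myocytes. Protein-coding genes on chromosomes 1 to 19 were taken whose symbol was Rpl or Rps with a number and an optional a, l or x ending, together with Rplp0, Rplp1, Rplp2 and Rpsa. Ribosomal protein S6 kinases and pseudogenes were left out. The rule gave 77 of 20665 protein-coding genes, 47 of the large subunit and 30 of the small subunit. A CTCF region was assigned to a gene when its summit lay within 10 kb of the gene span in the mm10 build. That took in 75 of 16128 regions in the list of the library labelled CTCF knockout (called the knockout library here) and 98 of 20043 regions in the control list.

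CTCF was mapped by chromatin immunoprecipitation with an anti-CTCF antibody and sequencing (ChIP-seq) in isolated left-ventricular cardiac myocytes of C57BL/6 mice. The knockout library came from myocytes whose genotype label was CTCF_knockout, and the control library from myocytes whose genotype label was control. Each was made from a pool of 3 hearts, so there was 1 ChIP library per genotype, with no replicate and no test between genotypes. The series also compared pressure overload by its design text, which was not analysed here. Neither age nor the driver and timing of the deletion is given in the labels used here. Peak lists hold no expression values, so neither the cell type nor the loss of Ctcf could be checked against marker genes.

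Ribosomal proteins fold and stabilise the ribosomal RNAs of the small subunit, which decodes messenger RNA, and of the large subunit, which joins amino acids. Their genes are short, are active in nearly every cell, often host small nucleolar RNAs in introns, and usually start transcription in a run of pyrimidines, the TOP motif through which mTOR signalling controls translation of their messages. In heart muscle, ribosome supply is tied to growth of the myocyte. CTCF is a zinc-finger protein that binds a defined DNA sequence, anchors chromatin loops together with cohesin, and also sits at many promoters.

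A CTCF region overlapped the upstream window of 10 members in both libraries, and 5 of these windows are shown, the 4 that hold the core of the CTCF motif and 1 of the 6 that do not. The windows are the 250 bases before a listed transcription start, from RefSeq on GRCm38.p6, the assembly called mm10, written 5′ to 3′ in the direction of the gene. Capitals mark matches to the letters CCNNNAGNNGGC, the central part of the CTCF motif, searched on both strands. Rplp0, Rpl5 and Rpl38 hold the core on the strand of the gene, Rpl37 holds it on the opposite strand, and Rpl27 is shown as a window with a region but no match to these letters.
Rplp0 (chr5:115559217-115559466, + strand): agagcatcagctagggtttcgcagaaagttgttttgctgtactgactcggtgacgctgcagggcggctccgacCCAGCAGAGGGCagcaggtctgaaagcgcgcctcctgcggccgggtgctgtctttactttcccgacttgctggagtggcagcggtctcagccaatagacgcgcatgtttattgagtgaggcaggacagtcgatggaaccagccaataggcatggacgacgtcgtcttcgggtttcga
Rpl5 (chr5:107900278-107900527, + strand): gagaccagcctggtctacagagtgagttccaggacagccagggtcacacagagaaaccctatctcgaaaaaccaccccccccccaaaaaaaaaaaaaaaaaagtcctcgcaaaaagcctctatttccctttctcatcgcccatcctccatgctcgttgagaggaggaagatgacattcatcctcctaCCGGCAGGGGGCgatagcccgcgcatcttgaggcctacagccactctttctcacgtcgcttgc
Rpl38 (chr11:114668330-114668579, + strand): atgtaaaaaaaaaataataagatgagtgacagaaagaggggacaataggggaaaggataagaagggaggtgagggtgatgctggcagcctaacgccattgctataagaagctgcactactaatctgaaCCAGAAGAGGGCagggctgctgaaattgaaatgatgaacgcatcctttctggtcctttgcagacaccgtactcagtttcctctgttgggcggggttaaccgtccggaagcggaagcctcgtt
Rpl37 (chr15:5116363-5116612, + strand): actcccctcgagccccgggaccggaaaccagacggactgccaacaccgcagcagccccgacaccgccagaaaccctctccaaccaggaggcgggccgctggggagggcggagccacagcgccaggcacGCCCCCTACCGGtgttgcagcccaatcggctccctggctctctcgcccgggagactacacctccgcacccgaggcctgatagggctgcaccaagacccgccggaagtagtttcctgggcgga
Rpl27 (chr11:101441995-101442244, + strand): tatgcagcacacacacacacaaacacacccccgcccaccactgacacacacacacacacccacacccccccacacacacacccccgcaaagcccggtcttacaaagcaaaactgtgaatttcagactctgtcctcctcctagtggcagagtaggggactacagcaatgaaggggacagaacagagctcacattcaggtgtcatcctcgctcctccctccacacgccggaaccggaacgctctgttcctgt

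In Rplp0 the core lay at positions -177 to -166 relative to the start, and the region summits lay 151 bases before it in the knockout library and 159 bases before it in the control library. The summits were thus 20.5 bases from the centre of the core in the knockout library and 12.5 bases from it in the control library. In Rpl5 the core lay at positions -63 to -52, with summits 31 bases before the start in the knockout library and 29 bases before it in the control library. In Rpl38 the core lay at positions -122 to -111. The knockout summit there was 7.5 bases from the centre of the core, and the control summit, within a region of 741 bp, was 350.5 bases from it. In Rpl37 the core also lay at positions -122 to -111, and the summits were 171.5 bases from its centre in the knockout library and 151.5 bases in the control library. The core was thus close to both summits at Rplp0 and Rpl5, close to 1 of them at Rpl38, and farther from both at Rpl37.

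A listed start was found for 57 of the 77 members. The core stood in the upstream window of 7 of the 57, or 12.3% (Wilson 95% interval 6.08 to 23.2%), against 6.54% of 5853 other protein-coding genes of at most 10 kb and 9.60% of all 16400 other protein-coding genes with a listed start. Among all windows of this length at those other genes, 8.32% held it. A region overlapped the window in 11 members, and 4 of these held the core, compared with 3 of the 46 members without a region there. A match is a description of the letters and not a binding site, and the absence of a match says nothing about CTCF. The intervals given for shares cover counting error only. The TOP start, a C followed by 4 pyrimidines at the listed start, was found in 14 of 57 members (24.6%, 15.2 to 37.1%), against 2.31% of the other genes of at most 10 kb and 2.63% of all other genes. The letters were required exactly at the listed base, so a start listed a few bases off counts as lacking them. The 24.6% is therefore not the share of members that have a TOP start.

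CTCF regions lay near most of these genes in both libraries. In the knockout library 52 of 77 members had a region within 10 kb (67.5%, 56.5 to 76.9%), where 46.3% of all protein-coding genes did. In the control library 57 of 77 had one (74.0%, 63.3 to 82.5%), where 52.4% of all protein-coding genes did. Ribosomal protein genes are short, with a median span of 3183 bp and a range of 592 to 11774 bp, so they were also set beside the 7267 other protein-coding genes of at most 10 kb, whose median span was 3840 bp. Of those, 33.7% had a knockout region and 38.0% a control region within 10 kb. The members' intervals lay above these shares in both libraries. The intervals of the members' shares overlapped between the libraries, and 50 members had regions in both lists, 2 in the knockout list alone, 7 in the control list alone and 18 in neither. Of the 20588 other protein-coding genes, 9513 had a knockout region, 10767 a control region and 9045 both. Regions in both lists were thus found at 64.9% of members and 43.9% of other genes. A region in at least 1 list was found at 76.6% of members and 54.6% of other genes.

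Neighbouring genes were counted too, since the windows of crowded genes overlap. Of the 9 members with no other protein-coding gene within 10 kb, 5 had a knockout region (55.6%, 26.7 to 81.1%) and 6 a control region (66.7%, 35.4 to 87.9%). Other genes of at most 10 kb that stood alone had one in 17.0% of cases in the knockout library and 19.2% in the control library. Of the 30 members with 1 neighbour, 18 had a knockout region (60.0%, 42.3 to 75.4%) and 22 a control region (73.3%, 55.6 to 85.8%), against 34.0% of the other short genes in the knockout library and 38.3% in the control library. Of the 33 members with 2 or 3 neighbours, 25 had a knockout region (75.8%, 59.0 to 87.2%) and 26 a control region (78.8%, 62.2 to 89.3%), against 51.8% of the other short genes in the knockout library and 57.5% in the control library. The members' intervals thus lay above the shares of other short genes in all 3 of these classes. Of the 5 members with 4 or more neighbours, 4 had a knockout region and 3 a control region, against 49.6% of the other short genes in the knockout library and 60.6% in the control library, within the wide intervals that 5 genes give. The number of regions per length had the members above other short genes as well, with 42.0 knockout regions and 54.8 control regions per Mb of window at the members, against 18.97 knockout regions and 23.5 control regions per Mb at the other genes of at most 10 kb.

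**Figure D1:**
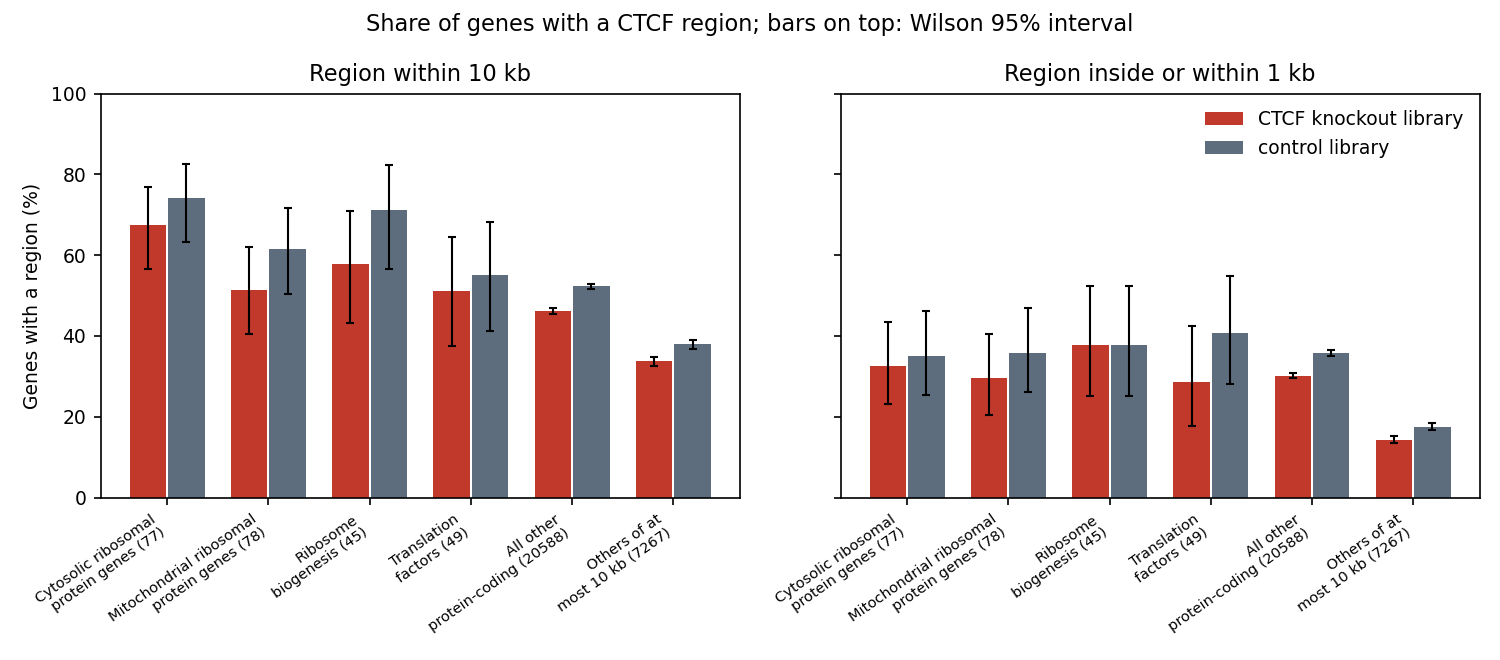
Share of genes (%, vertical axis) with a CTCF region within 10 kb (left panel) or with a summit inside or within 1 kb (right panel), in the knockout library (red) and the control library (grey), with Wilson 95% intervals. Cytosolic ribosomal protein genes reached 67.5% in the knockout library and 74.0% in the control library at 10 kb, and the other genes of at most 10 kb reached 33.7% in the knockout library and 38.0% in the control library.

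Close to the gene the members' shares were near those of genes at large. A summit inside the gene or within 1 kb was found for 25 of 77 members in the knockout library (32.5%, 23.1 to 43.5%) and for 27 of 77 in the control library (35.1%, 25.4 to 46.2%). All other protein-coding genes, with a median span of 17636 bp, had such a summit in 30.1% of cases in the knockout library and 35.8% in the control library. Other genes of at most 10 kb had one in 14.4% of cases in the knockout library and 17.5% in the control library. At this distance the members' intervals held the shares of all other genes and lay above those of short genes, as the bar plot of gene shares shows.

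Within 500 bp of a listed start, 10 of 57 members had a knockout summit (17.5%, 9.82 to 29.4%) and 12 of 57 had a control summit (21.1%, 12.5 to 33.3%). The 10 were Rpl10a, Rpl11, Rpl13a, Rpl26, Rpl27, Rpl37, Rpl38, Rpl5, Rplp0 and Rps15, and the control library added Rpl15 and Rpl4. Other genes of at most 10 kb had a summit there in 5.50% of cases in the knockout library and 7.53% in the control library. Mitochondrial ribosomal protein genes, which serve the separate ribosome of that organelle, had one in 18.8% of cases in the knockout library and 20.3% in the control library. Start occupancy lay mostly in the large subunit, with 9 of 35 large-subunit genes and 1 of 22 small-subunit genes in the knockout library, and 11 of 35 large-subunit genes and 1 of 22 small-subunit genes in the control library. The 22 small-subunit genes give a wide interval of 0.807 to 21.8%, which overlaps that of the large subunit.

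The members' regions lay inside the gene less often, and just outside it more often, than those of other short genes, by shares whose intervals exclude the other genes' values. Each position was taken to the nearest gene of its own set. The 7267 other short genes outnumber the 77 members and have a longer median span. A region therefore has more chances to fall inside one of them, and part of this contrast is built into the comparison. Of the 75 knockout regions 8 had a summit inside a member (10.7%, 5.50 to 19.7%), and of the 98 control regions 14 did (14.3%, 8.70 to 22.6%). At other genes of at most 10 kb these shares were 26.4% in the knockout library and 29.1% in the control library. Summits between 1 bp and 1 kb from the gene made up 28.0% of the members' knockout regions and 24.5% of their control regions, against 16.7% of knockout regions and 16.3% of control regions at the other short genes. Most of the members' regions, 46 of 75 knockout regions and 60 of 98 control regions, lay 1 to 10 kb away. The member was the nearest protein-coding gene for 50 of 75 knockout regions and 65 of 98 control regions, and 57 of 75 knockout regions and 77 of 98 control regions had another protein-coding gene within 10 kb.

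The 10 kb limit fell between close values. The outermost knockout region inside it was 9.958 kb from Rpl38 with an enrichment of 7.56, and the first one beyond it was 10.028 kb from Rplp2 with 7.75. In the control list the outermost regions inside were 9.995 kb from Rpl38 with 4.41 and 9.936 kb from Rplp2 with 8.76, and the first beyond were 10.320 kb from Rplp2 with 4.99 and 10.339 kb from Rpl9 with 11.5. The enrichment is the authors' fold over local background at each region. It was ranked only within its own list, and no direction is read from values of both lists set side by side.

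**Figure D2:**
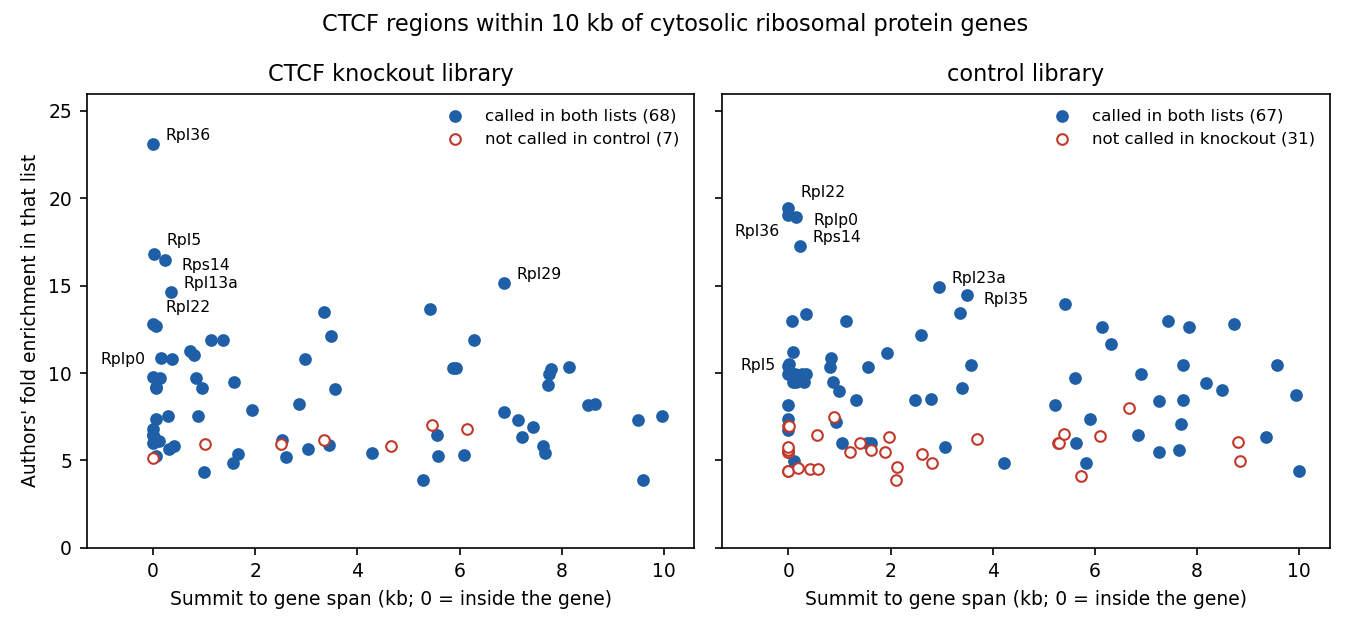
Distance from each summit to the span of its ribosomal protein gene (horizontal axis, kb, 0 for a summit inside the gene) against the authors' fold enrichment in that list (vertical axis), for the knockout library on the left and the control library on the right. Filled points were called in both lists and open points in 1; the open points lie at enrichments up to 7.02 in the knockout list and up to 7.98 in the control list, whereas Rpl36, Rpl22, Rplp0 and Rps14 lie high and at or near the gene.

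The median enrichment of regions near members was 7.56 in the knockout list and 8.09 in the control list, against 7.13 over all knockout regions and 6.98 over all control regions. Near other genes of at most 10 kb it was 7.56 in the knockout list, equal to the members' median to 3 digits, and 7.38 in the control list. The strongest 25% of each list held 37.3% of the members' knockout regions and 37.8% of their control regions (28.8 to 47.6%), against 30.9% of knockout regions and 30.1% of control regions near other genes of at most 10 kb. The members' interval in the control list holds the share of the other short genes. Of regions inside or within 1 kb of a member, 13 of 29 in the knockout list (44.8%) and 19 of 38 in the control list were in that strongest 25%. At the same distance from other genes of at most 10 kb these shares were 32.9% in the knockout list and 30.6% in the control list. No interval was computed for the shares of these 29 and 38 regions, so no difference is read from them.

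Most control regions near the members were called again in the knockout library. Of the 98 control regions 67 overlapped a knockout region by at least 1 bp, which is 68.4% (58.6 to 76.7%), and 69% of all 20043 control regions did so. Among control regions within 10 kb of any protein-coding gene the share was 68.5%. The members' share was therefore near the background. In the other direction 7 of the 75 knockout regions overlapped no control region, which is 9.33% (4.59 to 18.0%), against 14.2% of all knockout regions and 13.3% of those near a protein-coding gene. That share too lay within counting error of the background.

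Regions called again mostly had more reads at the summit (the pileup, recovered from the deposited enrichment and p-value) than those that were not. The cut at 15 reads used below was added after the data were seen. The deposited p-value also bears on calling, so part of this link is built in. Of the members' control regions that reached 15 reads at the summit, 56 of 60 were called in the knockout library (93.3%, 84.1 to 97.4%), against 90.6% of all control regions at that level. Below 15 reads 11 of 38 were called again (28.9%, 17.0 to 44.8%), against 43.5% of all such regions. The 4 regions of at least 15 reads with no knockout region were near Rpl22 with 21 reads, Rps24 with 20 reads, Rpl32 with 17 reads and Rps27 with 15 reads.

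**Figure D3:**
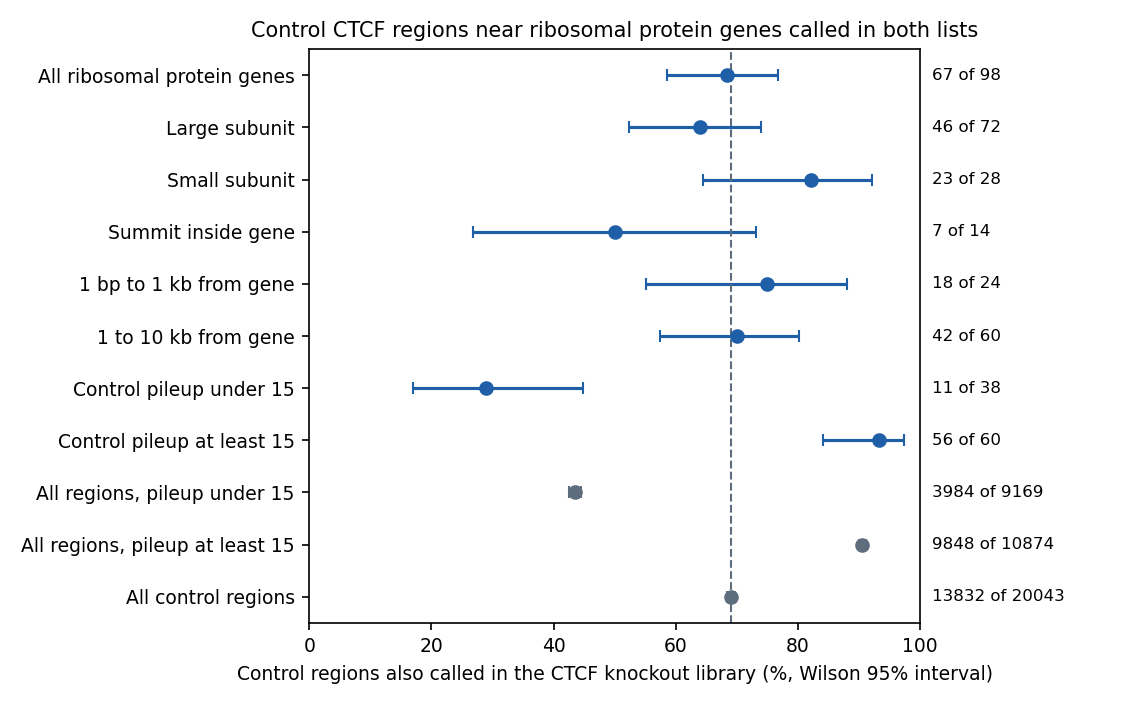
Share of control regions that overlap a region of the knockout library (%, horizontal axis, with Wilson 95% intervals), for regions near ribosomal protein genes (blue) and all regions (grey), with counts at the right. The dashed line marks all control regions; the members' regions split into 93.3% at a pileup of at least 15 reads and 28.9% below it.

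The share called again was 46 of 72 near large-subunit genes (63.9%, 52.4 to 74.0%) and 23 of 28 near small-subunit genes (82.1%, 64.4 to 92.1%). The difference, large minus small, was -18.3 percentage points, with an interval of -33.5 to 2.17 that includes 0. Large-subunit genes had 33 control regions under 15 reads and small-subunit genes 5. At 15 reads or more the shares were 37 of 39 near large-subunit genes and 21 of 23 near small-subunit genes. The counts of both subunits include 2 regions that lie near a gene of each, such as the one near Rpl3l and Rps2.

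At the 67 control regions called in both lists, pileups were mostly lower in the knockout library. The median ratio of knockout to control pileup was 0.846 (0.769 to 0.905), with 53 regions below 1, 2 equal and 12 above. Over all 13832 shared regions the median was 0.867 and 64.7% were below 1. The lowest local background was 0.851 reads in the knockout library and 1.01 reads in the control library, a ratio of 0.846. The members' median over all 67 regions had the same 3 digits. The lists give no depth, and whether depth accounts for the lower pileups was not tested. With a control pileup of at least 15 the members' median was 0.826 in 56 regions, 49 of them below 1 (87.5%). Over all shared regions at that level it was 0.810, with 75.4% below 1. This cut selects on the control pileup, the denominator of the ratio, so lower ratios are partly built in. Large-subunit genes had a median ratio of 0.862 (0.8 to 0.917) in 46 regions and small-subunit genes 0.769 (0.688 to 0.941) in 23. These intervals overlap.

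**Figure D4:**
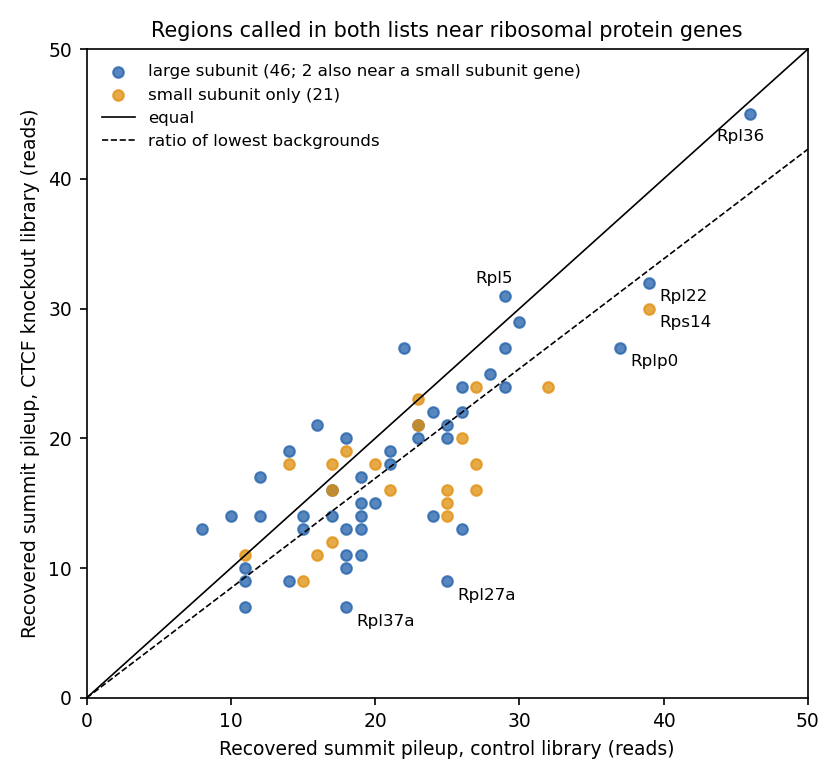
Recovered summit pileup in reads at the 67 regions called in both lists near ribosomal protein genes, control library on the horizontal axis and knockout library on the vertical axis, by subunit. The solid line marks equal pileups and the dashed line the ratio of the lowest backgrounds, 0.846; 53 of 67 points lie below the solid line, with Rpl27a and Rpl37a far below it and Rpl5 above it.

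The lowest ratios were at a region 6.1 kb from Rpl27a with 9 reads in the knockout library and 25 in the control library, and at a region 5.3 kb from Rpl37a with 7 reads in the knockout library and 18 in the control library. A region 9.6 kb from Rpl3l had 13 reads in the knockout library and 26 in the control library. The highest were at a region 10.0 kb from Rpl38 with 13 reads in the knockout library and 8 in the control library, and at a region 6.9 kb from Rplp2 with 17 reads in the knockout library and 12 in the control library. Rplp2 also had a shared region on its other side with 14 reads in the knockout library and 10 in the control library. Each of these is a single region with no replicate.

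Among large-subunit genes the strongest control region belonged to Rpl22, whose protein is needed for T-cell development in mice. It lay inside the gene at chr4:152332878-152333287, with 32 reads and an enrichment of 12.8 in the knockout library and 39 reads and 19.5 in the control library. Rpl36, a protein of the large subunit, had a region inside the gene at chr17:56613232-56613683 with 45 reads and 23.1 in the knockout library and 46 reads and 19.03 in the control library. The knockout list split this place in 2, adding a region of 11 reads and 6.02. The stronger of the 2 was the strongest region of any member in the knockout list and stood in the top 0.279% of that list, against 0.848% in the control list. Rpl23a, which sits at the exit of the peptide tunnel, had a shared region 3.0 kb away with 24 reads and 10.8 in the knockout library and 29 reads and 14.9 in the control library. That summit lay nearest to Tlcd1 rather than Rpl23a.

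Rpl5 and Rpl11 form, with 5S ribosomal RNA, the particle that binds Mdm2 when ribosome assembly fails and so stabilises p53. The region at the start of Rpl5 had 31 reads and an enrichment of 16.8 in the knockout library, and 29 reads and 10.5 in the control library. It stood in the top 1.41% of the knockout list and the top 16.9% of the control list. Rpl5 also had 2 regions in the control list alone, of 8 reads inside the gene and 13 reads 8.8 kb away. The region before Rpl11 had 16 reads and 9.12 in the knockout library, and 17 reads and 4.95 in the control library. The start regions of both genes were thus called in each library with pileups within 2 reads of each other.

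Rpl38 is the large-subunit protein whose loss in mice disturbs translation of Hox messages and the pattern of the skeleton. It had 4 regions in each library. A pair lay inside the gene, with 13 and 19 reads in the knockout library and 18 and 14 reads in the control library. Of the others, 1 region 4.7 kb away with 11 reads was called in the knockout library alone, and 1 region 0.57 kb away with 14 reads in the control library alone. Rpl13a, which in interferon-treated human monocytes leaves the ribosome to silence inflammatory messages, had a region 0.35 kb from its span, with 29 reads in the knockout library and 30 in the control library. A second region 7.7 kb away had 22 reads in the knockout library and 26 in the control library.

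Rpl3, a protein close to the peptidyl transferase centre, had the most control regions of any member, 5, of which 4 were called again. The regions with the highest pileups lay 5.4 kb away with 25 reads in the knockout library and 28 in the control library, and 7.8 kb away with 20 reads in the knockout library and 25 in the control library, both nearest to Syngr1. The region within the gene had 11 reads in the knockout library and 18 in the control library. Rpl24, which bridges the subunits and is mutated in the mouse belly spot and tail, had a shared region inside the gene with 11 reads in the knockout library and 19 in the control library. Rpl29 had a shared region 6.9 kb away with 27 reads in the knockout library and 22 in the control library, and a region of 10 reads inside the gene in the control list alone.

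A further 6 large-subunit genes had a shared summit inside or within 1 kb. Rpl10a had 14 reads in the knockout library and 24 in the control library at its start. Rpl26, whose protein binds the p53 message, had 18 reads in the knockout library and 21 in the control library. Rpl27 had 17 reads in the knockout library and 19 in the control library. These 3 start regions are among those within 500 bp of a listed start. Rpl37 had 13 reads in the knockout library and 19 in the control library. Rpl32 had 15 reads in the knockout library and 19 in the control library. Rpl4, whose protein lines the peptide tunnel, had 13 reads in the knockout library and 15 in the control library, 0.9 kb away. All 6 had fewer reads in the knockout library, as did 53 of the 67 shared regions near members. Rpl13 had a knockout summit 0.993 kb away with 7 reads, whose control summit, with 11 reads, lay 1.041 kb away.

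Rplp0, Rplp1 and Rplp2 form the stalk of the large subunit that recruits elongation factors, with Rplp0 anchoring dimers of the other proteins. The region before Rplp0, at chr5:115559202-115559640 in the control list, had 27 reads and an enrichment of 10.9 in the knockout library and 37 reads and 18.9 in the control library. It stood in the top 13.1% of the knockout list and the top 0.903% of the control list. Rplp1 had a single region, 6.1 kb away, with 12 reads in the control library and none in the knockout list. Of the 7 control regions near the stalk genes 5 were called again (71.4%, 35.9 to 91.8%), against 69% of all control regions. None of their 4 knockout regions lacked a control region (0 to 49.0%), against 14.2% of all knockout regions that did. Both intervals hold the share over all regions.

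Among small-subunit genes Rps14, whose haploinsufficiency causes the anaemia of the human 5q deletion syndrome, had the strongest region. It lay 0.218 kb from the span with 30 reads and an enrichment of 16.5 in the knockout library, and 39 reads and 17.3 in the control library. Further shared regions lay 7.215 kb and 8.652 kb from the gene in the knockout list, with 12 and 18 reads in the knockout library and 17 and 27 reads in the control library. All 3 of the Rps14 regions were called in each library.

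Rps15, a protein of the head of the small subunit, was the 1 small-subunit gene with a summit within 500 bp of a listed start, with 16 reads in the knockout library and 21 in the control library. Rps20 had 16 reads in the knockout library and 25 in the control library within 0.1 kb of its span. Rps29 had 19 reads in the knockout library, 0.4 kb away, and 18 reads in the control library, 0.3 kb away. Rps19, the gene most often mutated in human Diamond-Blackfan anaemia, had 24 reads in the knockout library and 27 in the control library at 0.8 kb. Rps10 had 16 reads in the knockout library and 17 in the control library at 1.0 kb. Of these 5 genes only Rps29 had more reads in the knockout library, by 1 read.

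A further 24 members had shared regions at more than 1 kb and none nearer, among them Rpl12, Rpl14, Rpl19, Rpl35, Rpl6, Rps2, Rps16, Rps25 and Rpsa, whose protein also serves as a laminin receptor. Their shared regions had 7 to 29 reads (median 16.5) in the knockout library and 10 to 30 reads (median 23) in the control library.

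The 7 members with control regions and no knockout region were Rpl15, Rpl30, Rpl8, Rplp1, Rps23, Rps27 and Rps3. Rpl15 had 13 reads inside the gene near its start, and Rpl8, a neighbour of the peptidyl transferase centre, had 13 reads inside and 12 reads 2.0 kb away. Rps23, a protein of the decoding centre, had 11 reads at 5.3 kb, and Rps3, which lies at the entry of the messenger RNA channel, had 9 reads at 8.9 kb. Rps27 had 15 reads at 6.7 kb and Rpl30 had 10 reads at 1.9 kb. The 2 members with knockout regions alone were Rpl7a, with 11 reads at 3.4 kb, and Rps27a, which encodes a fusion of ubiquitin and a small-subunit protein, with 9 reads inside the gene.

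The 31 control regions with no knockout region had enrichments of 3.89 to 7.98 (median 5.59) and 7 to 21 reads. The 7 knockout regions with no control region, among them those near Rpl24, Rpl32, Rpl38, Rpl7a and Rps27a, had enrichments of 5.17 to 7.02 and 9 to 13 reads. Rpl7 and Rpl32 each had 3 regions in the control list alone, with 8 to 12 reads at Rpl7 and 7 to 17 reads at Rpl32. Both genes also had a shared region within 1.4 kb, and that of Rpl7 had 21 reads in the knockout library and 16 in the control library. Every control region of more than 21 reads near a member was called in the knockout library.

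Neither list had a region within 10 kb of 18 members. Among them were Rpl10l, Rpl18, Rpl21, Rpl23, Rpl31, Rpl32l, Rpl34, Rpl35a, Rpl39l, Rpl41, Rpl9, Rps12, Rps18, Rps26, Rps6, Rps7 and Rps9. Rps6 is the target of the S6 kinases, and Rpl10l and Rpl39l are testis paralogs of X-linked genes. Rpl3l, the paralog of Rpl3 that is restricted to heart and skeletal muscle, had 2 shared regions, both beyond 3 kb. The nearer one, 3.3 kb from Rpl3l and nearest to Ndufb10, had 22 reads in the knockout library and 24 in the control library, with enrichments of 5.21 in the knockout list and 12.2 in the control list. Of these 3 paralogs Rpl3l was the one with a region within 10 kb.

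Small nucleolar RNAs were annotated inside 27 of the 77 members (35.1%), which held 56 of the 445 such RNAs within protein-coding genes. Of other genes of at most 10 kb 0.440% held one, and of all other genes 1.59%.

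Other genes of the translation system showed lower or similar shares at 10 kb. These shares are not matched for length, as the members' median span was 3183 bp. It was 7690.5 bp for mitochondrial ribosomal protein genes, 14541 bp for biogenesis genes and 14989 bp for translation factors. For RNA polymerase I genes it was 24204 bp, and for TOP and mTOR genes 29646 bp. Of 78 mitochondrial ribosomal protein genes 51.3% had a knockout region within 10 kb and 61.5% a control region. Of 45 ribosome biogenesis genes 57.8% had a knockout region and 71.1% a control region, and of 49 translation factor genes 51.0% had a knockout region and 55.1% a control region. Of 12 RNA polymerase I genes 3 had a knockout region and 5 a control region, and of 24 genes for TOP message and mTOR control 62.5% had one in each library. Control regions called again numbered 49 of 70 near mitochondrial ribosomal protein genes, 37 of 51 near biogenesis genes, 33 of 43 near translation factors, 4 of 7 near polymerase I genes and 16 of 25 near TOP and mTOR genes. The intervals of the cytosolic members overlapped those of the mitochondrial, biogenesis and translation factor genes at 10 kb. That of the 12 RNA polymerase I genes lay below the members' in the knockout library (8.89 to 53.2%). In the control library it overlapped the members' (19.3 to 68.0%). Inside or within 1 kb, 37.8% of biogenesis genes had a region in each library. In the knockout library the share was 28.6% for translation factors, 29.5% for mitochondrial genes and 29.2% for TOP and mTOR genes. In the control library these were 40.8%, 35.9% and 37.5%. The members' intervals at that distance held all of these shares.

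Among regions inside or within 1 kb of the genes of those lists, the ones highest by control enrichment included those at Mrps2, with enrichments of 15.1 in the knockout list and 18.3 in the control list, at Nle1, an assembly factor of the large subunit, with 16.8 in the knockout list and 19.4 in the control list, and at Eif3g, a subunit of the initiation factor that binds the small subunit, with 22.7 in the knockout list and 16.9 in the control list. Larp1, which binds the TOP start of ribosomal protein messages, had a region inside the gene with 6.72 in the knockout list and 9.97 in the control list. Polr1a, the largest subunit of RNA polymerase I, had one inside the gene with 8.28 in the control list and none in the knockout list. Of the 7 ribosomal protein genes that the symbol rule leaves out, 4 had a control region within 10 kb. All 7 control regions near them were called again (64.6 to 100%), against 69% of all control regions. Their median pileup was 24 reads, against 15 over all control regions. Among them was one 87 bp from Rps3a1 with 12.2 in the knockout list and 10.9 in the control list.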

How the data were processed

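The submitters' processing notes name Bowtie2 (2.2.6), SAMtools (0.1.19) and MACS2 and the mm10 build; the sources used here do not give the MACS2 version, threshold or duplicate handling. The deposited lists, 1 per library and called against input by their region names, give for each region a fold enrichment (ratio over local background), a −log10 p, a −log10 q and a score. All lines were used. The lists give no depth. Summit pileups were solved from the deposited fold, taken as (pileup + 1) / (background + 1), and the deposited p-value, taken as an upper Poisson tail. In 100% of regions of either list, a whole number of reads returned the deposited −log10 p to within 0.001. The recovery and overlap code was checked on simulated data.

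Gene spans and promoter windows came from RefSeq tables of GRCm38.p6. The ending in the symbol rule was read as 1 letter, so Rpl36al and Rps3a1 are outside it. Starts were not listed for 20 members, among them Rps14, Rpl23a and Rpl32. Regions that overlapped by 1 bp or more counted as shared. Named genes were those with a summit inside or within 1 kb, those with regions in 1 list alone, the 5 with the strongest shared region in the control list, Rpl3l, Rpl10l and Rpl39l, and up to 3 genes of each other list. Further genes, among them Rpl27a, Rpl37a and the members without a region, were named after their values were seen. Some genes that the rule names are not reported here. The members and lists were chosen with earlier results of these data known. Alternatives were stricter cutoffs, stricter overlaps and other windows. The code ran on Python 3.11.15 with pandas 2.3.3, numpy 2.4.6, matplotlib 3.10.9 and scipy 1.17.1.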

Additional observations from a re-analysis of the deposited data

How the results depend on the processing

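Of the main values recomputed under other settings 23 stayed within their counting error or within 1.5 times, 4 moved, and none reversed. With a window of 2 kb, which takes in fewer regions by construction, 29 members had a knockout region (52 at 10 kb) and 32 a control region (57 at 10 kb). Where sharing needed at least 50% of both regions to overlap, 20% of the members' knockout regions had no control region, against 9.33% with an overlap of 1 bp, and over all knockout regions the share was 25.7%, against 14.2%. With control pileups of at least 15 reads, an alternative added after the data were seen, 93.3% of the members' control regions were called again, against 68.4% of all of them. Of the other values 64 stayed and 8 moved. No paired analysis was possible because there was only 1 ChIP library for each genotype. The lists give no depth, the ratio of lowest backgrounds was not checked against it, and weak regions lie close to the calling limit of both lists.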
